A study of Homo sapiens with 9 samples.

Results

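TAF9, TRRAP and GTF2H1 are 3 genes for subunits of complexes that start or prepare transcription, and each was targeted by 4 sgRNAs of a pooled knockout library. The 12 sgRNAs were taken by gene name from a count table of 3152 sgRNAs against 763 genes, with 100 non-targeting controls among them. All 12 passed a minimum mean of 30 reads over the libraries, as did 3145 of the 3152 sgRNAs. The genes were chosen by measured values of these same libraries, TAF9 by its fold change for pralatrexate against vehicle and TRRAP and GTF2H1 by their fold changes for vehicle against baseline. Values from those contrasts, and from pralatrexate against baseline, are therefore a description with no test.

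TAF9 is a histone-fold subunit shared by TFIID, the complex that recognises core promoters, and SAGA, a coactivator that acetylates histones. TRRAP is a very large scaffold that connects activators to the SAGA and NuA4/TIP60 acetyltransferases. It belongs by sequence to the family of phosphatidylinositol 3-kinase-related kinases (PIKK), in which it has lost catalytic activity. GTF2H1 encodes the p62 subunit of TFIIH, which opens promoter DNA, carries the CDK7 kinase that phosphorylates RNA polymerase II, and unwinds damaged DNA in nucleotide excision repair.

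The cells were RH4, a human rhabdomyosarcoma line with the PAX3::FOXO1 fusion, and every group carried the Brunello kinome library, in which Cas9 cuts the gene named by each sgRNA. Coverage at infection was 1000 cells per sgRNA. Selection with 0.25 µg/ml puromycin began 48 h after infection and lasted 72 h. The day 10 libraries came from cells kept for 10 days in 1.5 nM pralatrexate, an antifolate drug directed at dihydrofolate reductase, or in vehicle, after 72 h of recovery and with passages every 4 days. Baseline libraries were taken from infected cells right after selection, before any recovery. Each group had 3 libraries. They carry repeat numbers, and the study mentions both infections in triplicate and technical replicates, so the spread behind each p-value is that between libraries alone and could be technical. All are pools of 1 cell line in which a cut can leave some cells with a working gene, and the files hold sgRNA reads only, so neither editing nor the markers of the line were measured. An sgRNA's share of reads stands for the share of cells with that sgRNA.

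Libraries held 2468136 to 4227230 reads with pralatrexate, 3194504 to 4602712 with vehicle and 3483100 to 4431337 at baseline, a mean of 1219 ± 221 reads per sgRNA (SD, n = 9). Levels are CPM, reads scaled to library size after trimmed-mean (TMM) normalization, and the spread between libraries of a group came to a coefficient of variation of 13.2%. The 99 non-targeting sgRNAs that passed the minimum had a median log2 fold change of −0.00409 for pralatrexate against vehicle (−0.43 to 0.47), 0.31 for vehicle against baseline (−0.05 to 0.67) and 0.34 for pralatrexate against baseline (−0.17 to 0.66). Fold changes are thus relative to the typical targeting sgRNA of the library (median over genes 0.01, 0.02 and 0.01 in the same order), and against non-targeting sgRNAs the day 10 changes from baseline lie lower by those medians. The 3 genes together took 0.190% to 0.199% of reads with pralatrexate, 0.214% to 0.217% with vehicle and 0.392% to 0.416% at baseline.

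TAF9 sgRNAs were on average close to their baseline share in vehicle, and 3 of the 4 were less abundant in pralatrexate than in vehicle. The gene lies on chromosome 5 at 69362026 to 69370013, on the minus strand (GRCh38, GENCODE annotation), with 3 exons and 792 coding bases in its canonical transcript. sgRNA 1 stood at 129.8, 167 and 154 CPM in pralatrexate libraries 1 to 3, at 258, 231 and 202 CPM in vehicle, and at 234, 274 and 265 CPM at baseline. sgRNA 2 stood at 202, 188 and 143 CPM in pralatrexate, at 233, 283 and 225 CPM in vehicle, and at 211, 210.2 and 215 CPM at baseline. For both of these sgRNAs every pralatrexate library lay below every vehicle library, as for 4.56% of targeting sgRNAs, and below every baseline library, as for 20% of them. For sgRNA 2 every vehicle library lay above baseline, as for 14.3%. sgRNA 4 stood at 272, 259 and 314 CPM in pralatrexate, at 366, 308 and 429.8 CPM in vehicle, and at 347, 369.7 and 408 CPM at baseline. Its pralatrexate libraries lay below baseline, but the highest of them reached into the range of vehicle. sgRNA 3 showed no such decrease, with 356, 344 and 299.8 CPM in pralatrexate, 282, 354 and 346 CPM in vehicle, and 443, 489 and 346 CPM at baseline, and its groups overlapped in each comparison.

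**Figure D1:**
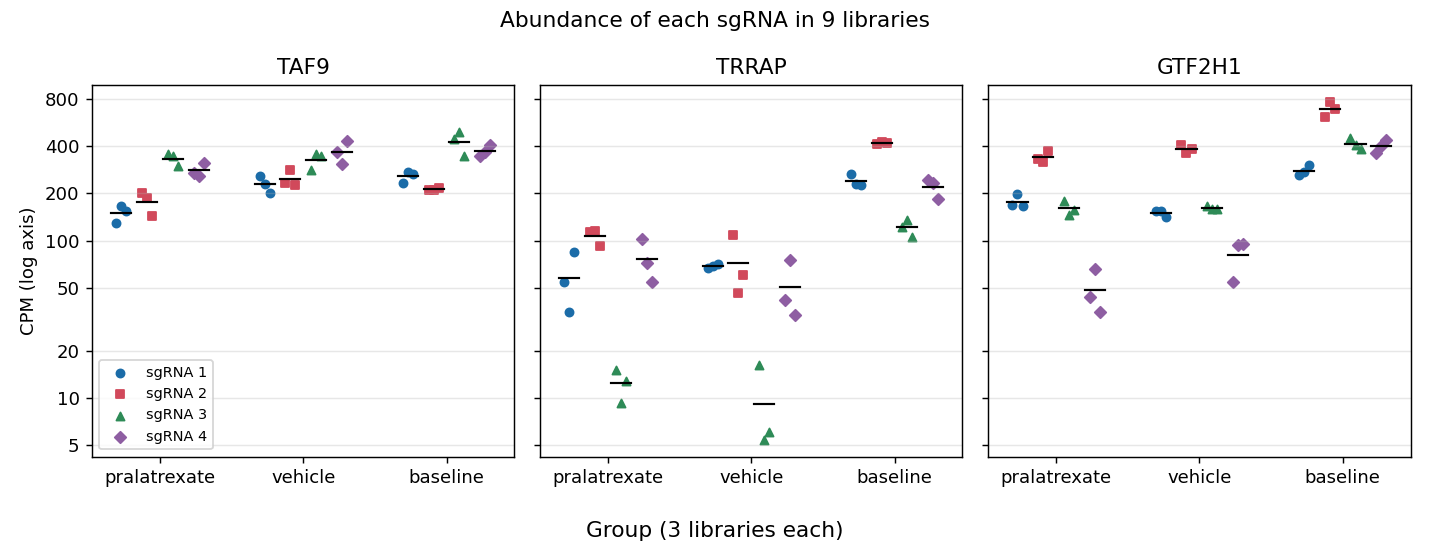
Abundance of the 12 sgRNAs against TAF9, TRRAP and GTF2H1 in CPM (log axis) in each of 3 libraries per group, with pralatrexate, vehicle and baseline from left to right. Points are libraries and black bars their means. TRRAP sgRNAs lie far below baseline in both day 10 groups, GTF2H1 sgRNAs lie below it to unequal degrees, and TAF9 sgRNAs 1, 2 and 4 lie lower in pralatrexate than in vehicle on average.

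Fold changes of the 4 TAF9 sgRNAs for pralatrexate against vehicle were −0.61 ± 0.16, −0.48 ± 0.17, 0.02 ± 0.14 and −0.38 ± 0.13 on the log2 scale (SE, edgeR). Their mean was −0.36 ± 0.27 (SD, 4 sgRNAs), 0.778 of the vehicle level, the lowest value but 3 among 763 genes. As a level per library (mean log2 CPM of the 4 sgRNAs), TAF9 was at 7.81, 7.85 and 7.74 in pralatrexate and at 8.14, 8.19 and 8.16 in vehicle. The pralatrexate levels all lay below the vehicle levels, as they did for 3.41% of genes. Within same-numbered libraries the difference was −0.32, −0.34 and −0.42, each a mean over the 4 sgRNAs. A decrease in 3 of 3 pairs was found for 12.6% of genes. This contrast chose TAF9, so its place in the counts that follow is a description and no test. By rank aggregation of sgRNA p-values (threshold FDR 0.05 over all genes), TAF9 was among the 0.524% of genes counted as depleted. It was not counted without vehicle 2, vehicle 3, pralatrexate 2 or pralatrexate 3, where its fold change without 1 library lay between −0.39 and −0.34. None of its sgRNAs was counted alone, where edgeR counted 0.0318% of sgRNAs as lower (1 sgRNA, or 4 sgRNAs in either direction with the replicate number as a block), and sgRNAs 1 and 2 lay below the lowest non-targeting sgRNA.

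The comparison of vehicle with baseline did not choose TAF9, although it shares the vehicle libraries with the comparison that did. TAF9 had a log2 fold change of −0.09 ± 0.25 there (SD, 4 sgRNAs) and did not pass (edgeR p-values with rank aggregation, FDR 1 over 763 genes). Single sgRNAs differed in direction, at −0.17 ± 0.16, 0.22 ± 0.17, −0.38 ± 0.13 and −0.03 ± 0.13 (SE). sgRNA 3, the one that was not lower in pralatrexate than in vehicle, was the lowest of them here (edgeR FDR 0.0472), in a comparison in which 12.8% of all sgRNAs passed as lower. On the library scale the mean without it was 0.01, so on that scale the direction of TAF9 in vehicle rests on sgRNA 3. Relative to the non-targeting median all 4 sgRNAs were lower, at −0.48, −0.09, −0.69 and −0.34. Of these, sgRNAs 1 and 3 lay below the lowest non-targeting sgRNA. Gene levels were 8.16 ± 0.03 in vehicle and 8.25 ± 0.06 at baseline (SD, n = 3 each) and did not overlap, as in 24.4% of genes in this direction. Against the non-targeting median the change was −0.40. For pralatrexate against baseline all 4 sgRNAs were lower, with a mean of −0.45 ± 0.23 (SD, 4 sgRNAs). Of these, 2 were counted as lower by edgeR, beside 13.1% of all sgRNAs. Rank aggregation did not count the gene as depleted, where it counted 7.21% of genes. Limma did, where it called 19.9% of genes depleted, and edgeR on summed reads did, where it called 174 of 763 genes. Rank aggregation without pralatrexate 1 also counted TAF9, among 57 genes.

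The TAF9 gene shares its locus with AK6, which encodes an adenylate kinase of the nucleus, on the same strand (chromosome 5, 69350984 to 69370013). The start of TAF9 on its strand overlaps RAD17, a DNA damage checkpoint gene, on the other strand (69369293 to 69414801). The overlap in span was 7988 bases with AK6 and 721 bases with RAD17. Of the 792 coding bases of TAF9, 0 lay in an exon of either gene, while 140 of 536 coding bases of AK6 (26.1%) lay in exons of TAF9. sgRNA sequences were not used here, so the cut sites were not placed. AK6 itself was not analysed here. Among 8 other adenylate kinases (AK1 to AK5 and AK7 to AK9), 0 were depleted or enriched in any of the 3 comparisons by edgeR with rank aggregation, 0 also at an unadjusted p under 0.05. By limma and by edgeR on summed reads 1 (AK4) was lower against baseline in both day 10 groups. Limma called 19.8% of all genes depleted in vehicle and 19.9% in pralatrexate, and summed reads called 160 and 174 of 763 genes. The 8 adenylate kinases had a median of 0.02 in each comparison, and their fold changes for pralatrexate against vehicle ran from −0.11 to 0.10.

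TRRAP sgRNAs were far less abundant in both day 10 groups than at baseline. The gene spans 98877933 to 99050831 on chromosome 7, plus strand, with 73 exons and 11619 coding bases. sgRNA 1 was at 54.5, 35.1 and 85.2 CPM in pralatrexate and at 67.6, 69.3 and 70.7 CPM in vehicle, against 266, 231 and 226 CPM at baseline. sgRNA 2 was at 114, 115 and 92.0 CPM in pralatrexate and at 109, 46.7 and 60.3 CPM in vehicle, against 415, 425 and 421 CPM at baseline. These 2 sgRNAs, and the other two as well, were lower in every day 10 library than in any baseline library, which held for 20.2% of targeting sgRNAs in vehicle. sgRNA 3 was at 15.0, 9.29 and 12.9 CPM in pralatrexate and at 16.1, 5.43 and 6.12 CPM in vehicle, against 123, 136 and 106 CPM at baseline. It already started low, below the lowest decile of targeting sgRNAs at baseline (158 CPM), and its day 10 values rested on 23 to 56 reads. sgRNA 4 was at 103, 71.9 and 54.9 CPM in pralatrexate and at 42.2, 76.1 and 33.8 CPM in vehicle, against 243, 232 and 185 CPM at baseline.

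Log2 fold changes of the TRRAP sgRNAs for vehicle against baseline were −1.80 ± 0.24, −2.56 ± 0.22, −3.77 ± 0.39 and −2.11 ± 0.27 (SE), so that 28.7%, 17.1%, 7.58% and 23.0% of their mean baseline CPM was left. Their mean was −2.56 ± 0.86 (SD, 4 sgRNAs), a level of 0.170 of baseline and the lowest among all genes but 2. Without sgRNA 3 the mean was −2.16. All 4 sgRNAs were counted as lower by edgeR, beside 12.8% of all sgRNAs. TRRAP and GTF2H1 were among the 6.68% of genes counted as depleted, in the contrast that chose them. For pralatrexate against baseline the 4 sgRNAs stood at −2.03, −1.97, −3.27 and −1.52, with a mean of −2.20 ± 0.75 (SD, 4 sgRNAs), where 7.21% of genes were counted as depleted. TRRAP levels were 5.60 ± 0.23 log2 CPM in pralatrexate, 5.23 ± 0.31 in vehicle and 7.83 ± 0.11 at baseline (SD, n = 3 each), and the day 10 libraries spread more among themselves than those of TAF9 or GTF2H1.

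The contrast of pralatrexate with vehicle did not choose TRRAP, but its vehicle libraries also served in the contrast that did. TRRAP had a log2 fold change of 0.36 ± 0.40 (SD, 4 sgRNAs), with 3 of 4 sgRNAs higher, and ranked 3 from the top of 763 genes. It did not pass (edgeR p-values with rank aggregation, FDR 0.73), nor did any gene as enriched in this contrast (0% of 763; 41 at an unadjusted p under 0.05, and 1 after adjustment with limma or with edgeR on summed reads). The sgRNAs stood at −0.23 ± 0.25, 0.59 ± 0.22, 0.49 ± 0.41 and 0.59 ± 0.27 (SE), and none passed alone, with edgeR FDRs of 0.806 for sgRNA 2 and 0.857 for sgRNA 4. The groups overlapped at the gene level, at 5.82, 5.37 and 5.62 log2 CPM in pralatrexate and 5.58, 5.13 and 4.98 in vehicle. Within same-numbered libraries pralatrexate was higher by 0.24, 0.24 and 0.65, as it was in 3 of 3 pairs for 13.5% of genes.

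**Figure D2:**
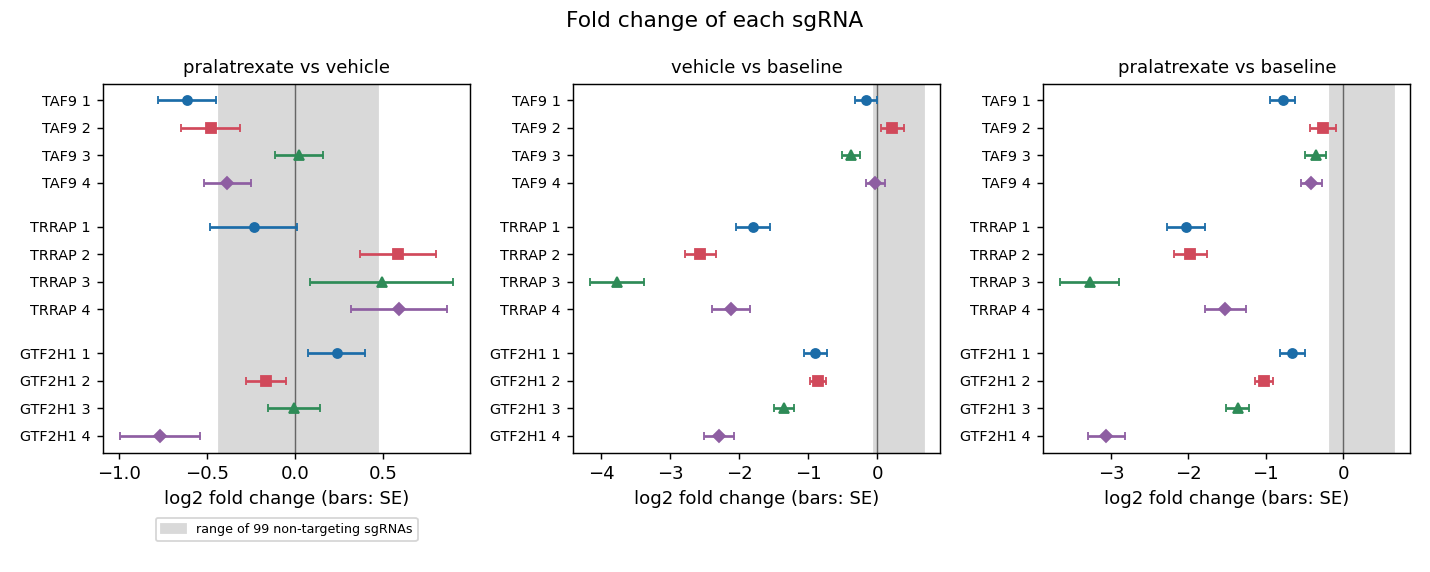
Log2 fold change of each of the 12 sgRNAs (points, with SE bars from edgeR) for pralatrexate against vehicle, vehicle against baseline and pralatrexate against baseline, with the range of 99 non-targeting sgRNAs in grey. For vehicle against baseline the 8 sgRNAs of TRRAP and GTF2H1 lie between −3.77 and −0.85, all below the non-targeting range, while for pralatrexate against vehicle the sgRNAs of each gene differ in direction.

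GTF2H1 sgRNAs were also less abundant at day 10 than at baseline, to a degree that differed between sgRNAs. The gene spans 18322295 to 18367045 on chromosome 11, plus strand, with 15 exons and 1644 coding bases. sgRNA 1 was at 168, 199 and 166 CPM in pralatrexate and at 154, 156 and 142 CPM in vehicle, against 261, 275 and 303 CPM at baseline. sgRNA 2, the most abundant of the 12 at baseline, was at 332, 318 and 371 CPM in pralatrexate and at 404, 359 and 383 CPM in vehicle, against 612, 765 and 693 CPM at baseline. For sgRNA 1 the pralatrexate libraries also lay above the vehicle libraries, while for sgRNA 2 these groups overlapped.

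The other two GTF2H1 sgRNAs were lower still against baseline. sgRNA 3 was at 179.7, 146 and 158 CPM in pralatrexate and at 167, 160.2 and 159 CPM in vehicle, against 449.6, 406 and 385 CPM at baseline. sgRNA 4 was at 44.1, 66.6 and 35.2 CPM in pralatrexate and at 54.9, 93.7 and 95.7 CPM in vehicle, against 364, 399 and 437 CPM at baseline. Of mean baseline CPM, pralatrexate libraries kept 63.5%, 49.3%, 39.0% and 12.2% for sgRNAs 1 to 4, and vehicle libraries kept 53.8%, 55.4%, 39.2% and 20.4%. For all 4 sgRNAs every day 10 library lay below every baseline library, as for 20.2% of targeting sgRNAs in vehicle and 20% in pralatrexate.

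In log2 terms the GTF2H1 sgRNAs changed by −0.89 ± 0.16, −0.85 ± 0.11, −1.35 ± 0.15 and −2.29 ± 0.22 for vehicle against baseline (SE), with a mean of −1.35 ± 0.67 (SD, 4 sgRNAs), rank 39 from the lowest of 763 genes. For pralatrexate against baseline they changed by −0.66, −1.02, −1.36 and −3.06, with a mean of −1.52 ± 1.06 (SD, 4 sgRNAs), rank 30. All 4 were counted as lower by edgeR in both comparisons, beside 12.8% of all sgRNAs for vehicle and 13.1% for pralatrexate. The spread between GTF2H1 sgRNAs was thus wide, against a median SD over the sgRNAs of a gene of 0.191 and 0.183 in these comparisons. Without sgRNA 4 the mean was −1.01 in pralatrexate and −1.03 in vehicle, each against baseline. Gene levels were 7.20 ± 0.10 log2 CPM in pralatrexate, 7.37 ± 0.08 in vehicle and 8.72 ± 0.06 at baseline (SD, n = 3 each).

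For pralatrexate against vehicle, a contrast that did not choose GTF2H1 but shares vehicle libraries with the one that did, the mean was −0.17 ± 0.43 (SD, 4 sgRNAs) and did not pass (edgeR p-values with rank aggregation, FDR 0.983). sgRNA 4 was the furthest below 0, at −0.77 ± 0.23 (SE), the lowest value but 5 of 3145 sgRNAs, and did not pass either (edgeR FDR 0.378). Its libraries overlapped between the groups, because vehicle 1 at 54.9 CPM lay below pralatrexate 2 at 66.6 CPM. The other sgRNAs were at 0.24 ± 0.16, −0.17 ± 0.11 and −0.01 ± 0.15. The higher level of sgRNA 1 in every pralatrexate library than in any vehicle library was shared by 4.46% of targeting sgRNAs. sgRNAs 1 and 4 thus had opposite signs. The mean without sgRNA 4 was 0.02. Within same-numbered libraries the gene level differed by −0.09, −0.11 and −0.32.

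**Figure D3:**
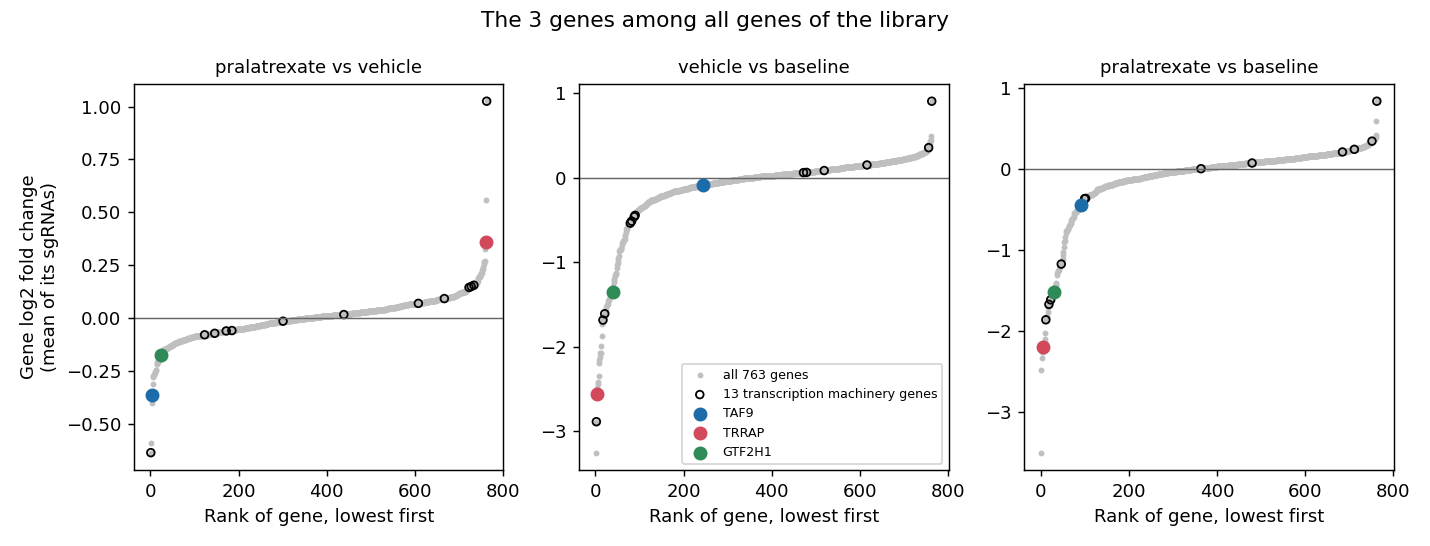
Log2 fold change of each of 763 genes (mean of its sgRNAs) ranked from lowest to highest in the 3 comparisons, with TAF9, TRRAP and GTF2H1 as filled points and 13 other genes of the transcription machinery as open circles. TRRAP lies at −2.56 and GTF2H1 at −1.35 for vehicle against baseline, where TAF9 lies at −0.09, and TAF9 lies at −0.36 and TRRAP at 0.36 for pralatrexate against vehicle.

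The values of the 3 genes across comparisons are a description, since the contrasts that chose each gene are among them. GTF2H1 and TRRAP differed in sign between media only by values that did not pass. The sign of GTF2H1 turned without sgRNA 4 (0.02). TAF9 was near its baseline level in vehicle on the library scale (−0.40 against non-targeting sgRNAs) and lower in pralatrexate, GTF2H1 was lower at day 10 in both media with a small difference between media that did not pass, and TRRAP was much lower at day 10 in both, with a difference between media in the other direction that did not pass. At baseline the sgRNAs of the 3 genes ranged from 122 CPM (TRRAP sgRNA 3) to 690.1 CPM (GTF2H1 sgRNA 2), where the lower and upper quartiles over targeting sgRNAs were 229 and 402 CPM. The SD over the 4 sgRNAs for pralatrexate against vehicle was 0.27 for TAF9, 0.40 for TRRAP and 0.43 for GTF2H1, against a median of 0.137 over all genes.

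The library also held partners of these subunits. TAF1, the largest subunit of TFIID and so a complex partner of TAF9, fell for vehicle against baseline (log2 fold change −1.68 ± 1.06, SD, 4 sgRNAs; edgeR with rank aggregation, FDR 0.00792), with sgRNAs at −1.96, −1.09, −0.65 and −3.04. All 4 TAF1 sgRNAs passed as lower, against 1 of 4 for TAF9, in a comparison in which 12.8% of all sgRNAs did. For pralatrexate against vehicle TAF1 was at 0.07 ± 0.43 with 2 sgRNAs lower and 2 higher (FDR 0.792 for a rise), while TAF9 had 3 of 4 lower. CDK7, the kinase of TFIIH, was at −1.61 ± 1.52 for vehicle against baseline, close to GTF2H1 in its mean, but did not pass (FDR 0.198). Its sgRNAs stood at −2.39, −3.35, −0.55 and −0.14 and only the first pair passed alone. For pralatrexate against vehicle CDK7 was at −0.06 ± 0.30 (FDR 0.983).

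In a list of 13 other transcription genes (TAF1, TAF1L, CDK7, CDK9, CDK12, CDK13, CDK19, BRD2, BRD3, BRDT, TRIM24, TRIM28 and TRIM33), 2 were depleted and 1 enriched for vehicle against baseline, with a median of −0.44 beside 0.02 over all genes, of which 6.68% were depleted. By limma on gene levels 7 were depleted, CDK7 among them, and 2 enriched, where limma counted 19.8% of all genes as depleted and 9.04% as enriched. The depleted genes were TAF1 and CDK9, which releases paused RNA polymerase II (−2.89 ± 1.36, FDR 0.00735). CDK9 stood at −4.01 without vehicle 1 and at −2.24 without baseline 1. CDK13, a kinase of elongating polymerase, was the enriched gene (0.91 ± 0.13, FDR 2.6e-06), in a comparison in which 0.393% of genes were enriched. For pralatrexate against vehicle 1 of 13 was depleted, where 0.524% of all genes were. It was CDK12, another kinase of elongating polymerase (−0.64 ± 0.26, rank aggregation FDR 3.69e-05). In this contrast 0 of the list were enriched (4 at an unadjusted p under 0.05, and 0 by limma or DESeq2), where 0% of all genes were. The list had a median of 0.02. For pralatrexate against baseline 3 were depleted (TAF1, CDK9 and CDK12, where 7.21% of genes were depleted) and 1 enriched (CDK13, where 0.262% of genes were enriched), with a median of −0.36.

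Of the 5 catalytic relatives of TRRAP in the PIKK family, 3 were depleted for vehicle against baseline by edgeR with rank aggregation, beside 6.68% of all genes, with a median of −0.85. They were MTOR, the growth kinase (−2.07 ± 1.33, FDR 0.00352), SMG1, of nonsense-mediated decay (−1.16 ± 0.15, FDR 0.007), and ATR, the replication checkpoint kinase (−0.85 ± 0.53, FDR 0.0326). ATR did not pass without vehicle 1 (FDR 0.0574). ATM and PRKDC, both kinases of the double-strand break response, did not pass by rank aggregation. Limma, which called 19.8% of all genes depleted, and edgeR on summed reads, which called 160 of 763 genes, also called PRKDC depleted. For pralatrexate against baseline MTOR and SMG1 passed by rank aggregation (FDR 0.00565 and 0.00452), beside 7.21% of all genes, and ATR did not (FDR 0.164), with a median of −0.80. Limma, which called 19.9% of all genes depleted there, and edgeR on summed reads also called ATR and PRKDC. For pralatrexate against vehicle 0 of 5 passed in either direction (0 also at an unadjusted p under 0.05 and by limma) and the family ran from −0.09 to 0.06, each below the 0.36 of TRRAP, a difference that was not tested. CDK9 of the transcription list lay above TRRAP there, at 1.03 ± 1.45 (SD, 4 sgRNAs), the highest of 763 genes. It did not pass either (edgeR with rank aggregation, FDR 0.73).

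The genes most like each of the 3 were sought by the root mean square difference in profile over the 9 libraries, a profile being the gene level in each library minus its mean at baseline (762 other genes, log2 scale). Nearest to TAF9 were MARK2, a polarity kinase (0.111), NADK, which makes NADP (0.121), and CDK11B, a cyclin-dependent kinase of splicing and transcription (0.131), against a median of 0.32 over all genes. NADK was at −0.63 in pralatrexate and −0.03 in vehicle on this scale and TAF9 at −0.45 and −0.09, whereas MARK2 (−0.32 and −0.19) and CDK11B (−0.31 and −0.24) were lower in both. Nearest to TRRAP were DTYMK, which makes thymidine diphosphate (0.201), MVK of isoprenoid synthesis (0.202) and CLP1, an RNA kinase of tRNA splicing (0.214), against a median of 1.999. In pralatrexate and vehicle DTYMK was at −2.35 and −2.44, MVK at −2.19 and −2.50, CLP1 at −2.06 and −2.38, and TRRAP at −2.23 and −2.60. Nearest to GTF2H1 were EXOSC10, a nuclease of the RNA exosome (0.0925), RIOK1 of ribosome maturation (0.109) and PRPF4B, a kinase of the spliceosome (0.118), against a median of 1.19. All of these profiles share the same libraries and the same scaling, and the likeness is a description.

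**Figure D4:**
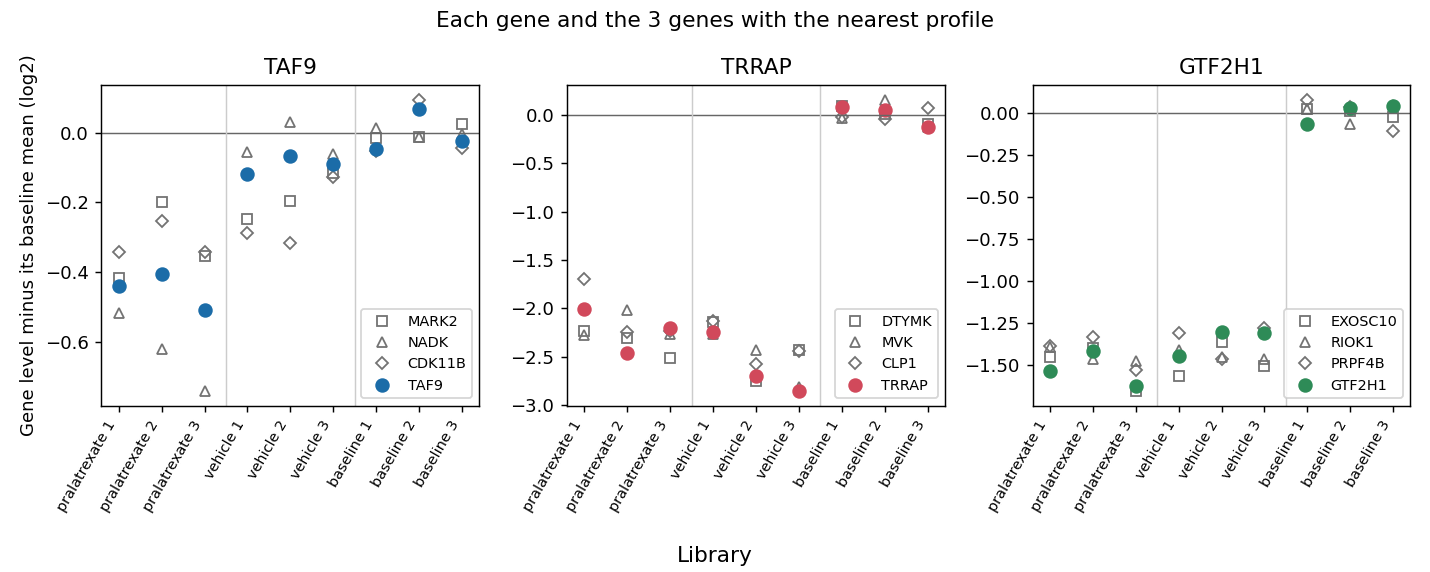
Gene level in each library minus the mean of the 3 baseline libraries (log2), for TAF9, TRRAP and GTF2H1 (filled circles) and the 3 genes with the nearest profile to each (open symbols), with pralatrexate, vehicle and baseline libraries from left to right. TAF9 lies between −0.51 and −0.40 in pralatrexate and between −0.12 and −0.07 in vehicle.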

How the data were processed

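sgRNA cassettes were amplified by PCR from the DNA of the cells, and the authors deposited raw read counts for each sgRNA with no normalization. The submitters' processing notes name Bowtie 1.0.0. The allowed mismatches and the counter are not given in the sources used, nor are molecular identifiers mentioned, so copies made by PCR were counted as well. The deposited MAGeCK gene tables (fold changes, scores, p-values and FDRs of the authors' comparisons) were not used. The selection time was taken from the labels, since the main text of the study gives a longer one.

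The members and gene lists were chosen with earlier results of these data known. sgRNAs with a mean of 30 or more reads were fitted with edgeR 4.0.16 in R 4.3.3 (quasi-likelihood, TMM, group as the only term, all 9 libraries). Rank aggregation as in MAGeCK was written anew and run on one-sided edgeR p-values (p under 0.25), while MAGeCK itself was not run. Its p-values came from an exact null distribution of the rank score and were adjusted by Benjamini and Hochberg over 763 genes (threshold 0.05). Gene values are means over sgRNAs, and gene levels used a prior count of 2. Named were the 3 genes, TAF1, CDK7, list genes that passed (1 listed gene is not reported here and was left out of its list), and the 3 nearest profiles. Alternatives were DESeq2 1.42.0, limma 3.58.1, other scalings, filters and summaries, each library or sgRNA left out, and a replicate block. Deviations of same-numbered pralatrexate and vehicle libraries correlated at 0.175, 0.198 and 0.188, so the numbers were taken to pair them. With same-numbered baseline libraries the correlations were weaker. They were 0.0706, 0.0224 and 0.0615 for vehicle libraries 1 to 3, where unlike-numbered pairs ran from −0.071 to 0.0111. For pralatrexate libraries 1 to 3 they were 0.0207, −0.0307 and −0.0065, within the range of unlike-numbered pairs (−0.0427 to 0.0489).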

Additional observations from a re-analysis of the deposited data

How the results depend on the processing

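Of 162 alternatives run on the 9 fold changes of the 3 genes, 132 kept the direction and either the side of the threshold (tested values, whose size could still move) or a size within 1 SD between libraries (values with no test), 28 moved by more than that SD and 2 turned the direction, which were GTF2H1 for pralatrexate against vehicle without sgRNA 4 (0.0225) and TAF9 for vehicle against baseline without sgRNA 3 (0.00974). No tested value passed under any alternative, with FDRs of 0.384 to 0.963 for TRRAP and 0.783 to 1 for GTF2H1 (pralatrexate against vehicle) and 0.165 to 1 for TAF9 (vehicle against baseline). Their sizes ran from 0.23 to 0.59 for TRRAP, −0.31 to 0.02 for GTF2H1 (−0.09 with summed reads and −0.09 with the median over sgRNAs, against −0.17) and −0.41 to 0.01 for TAF9 (−0.41 with scaling on non-targeting sgRNAs, against −0.09). With the replicate number as a block these values were 0.37 (FDR 0.384), −0.17 (FDR 0.984) and −0.09 (FDR 1), the sgRNAs called for pralatrexate against vehicle numbered 4, against 1 without it, and no call on the 3 genes changed. The lowest and highest TRRAP values for pralatrexate against vehicle were those without vehicle replicate 3 and without vehicle replicate 1. Scaling on non-targeting sgRNAs gave −2.89 (TRRAP) and −1.68 (GTF2H1) for vehicle against baseline and −0.76 (TAF9), −2.51 (TRRAP) and −1.83 (GTF2H1) for pralatrexate against baseline, with 1403 and 1322 sgRNAs called against 598 and 600. Reads summed per gene gave −0.32 (TAF9, pralatrexate against vehicle), −1.21 (GTF2H1, vehicle against baseline), −1.99 (TRRAP) and −1.31 (GTF2H1, both pralatrexate against baseline), and medians over sgRNAs gave −0.43 (TAF9), −1.12 (GTF2H1), and −0.38, −2.00 and −1.19 for TAF9, TRRAP and GTF2H1 in those comparisons. Leaving out sgRNAs gave, for TAF9, −0.28 (sgRNA 1) and −0.49 (sgRNA 3) for pralatrexate against vehicle and −0.34 (sgRNA 1) and −0.51 (sgRNA 2) for pralatrexate against baseline. For TRRAP it gave −2.81 (sgRNA 1) and −2.16 (sgRNA 3) for vehicle against baseline and −1.84 (sgRNA 3) and −2.43 (sgRNA 4) for pralatrexate against baseline. For GTF2H1 it gave −1.50, −1.51 and −1.03 (sgRNAs 1, 2 and 4) for vehicle against baseline and −1.81, −1.69 and −1.01 for pralatrexate against baseline. DESeq2 called 13 sgRNAs for pralatrexate against vehicle, against 1, and 1 gene enriched for vehicle against baseline, against 3. Genes depleted and enriched numbered 151 and 69 with limma and 160 and 110 with summed reads for vehicle against baseline (51 and 3 by rank aggregation), and 152 and 75, and 174 and 123, for pralatrexate against baseline (55 and 2), while for pralatrexate against vehicle each called 1 enriched. Without 1 library at a time, pralatrexate against vehicle had 1 to 3 sgRNAs called and 1 to 5 genes depleted (1 without vehicle replicate 2, 2 without pralatrexate replicate 2), and vehicle against baseline and pralatrexate against baseline each had 1 to 5 genes enriched. TRRAP and GTF2H1 were counted as depleted against baseline in both day 10 groups with each library left out in turn. With all libraries 6.68% of genes were so counted in vehicle and 7.21% in pralatrexate. Both genes were chosen by vehicle against baseline, so these counts are a description and no test. The cause of these shifts was not tested. TRRAP sgRNA 3, with 23 to 56 reads at day 10, was the least deeply measured of the 12.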
